A study of Mus musculus with 15 samples.

Results

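The genes described here are 46 genes of mitosis and of the spindle, the microtubule machine that pulls duplicated chromosomes apart. They were chosen by symbol for their known roles, and all 46 were found among the 24499 genes of the liver libraries and passed the filter on low counts. The 15 libraries of messenger RNA came from adult male mice of strain C57BL/6, in an animal model of alcohol given on top of chronic liver injury. Carbon tetrachloride (CCl4) is a solvent that liver enzymes turn into a toxic radical. The CCl4 arms were injected intraperitoneally 2 times a week with 0.2 ml/kg over 6 weeks. The arms taken at day 20 carry CCl4 in their second phase too, where the protocol names 0.5 of the dose. Ethanol was run into the stomach through a feeding tube, at up to 25 g/kg per day for 3 weeks. Ethanol arms are labelled with HFD and the others with chow, so each ethanol comparison is also one of diets. The arms without CCl4 are labelled OO, a name that the labels do not spell out.

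The 8 groups were OO at day 0 (libraries 1 and 2), CCl4 at day 0 (3 and 4), OO with chow at day 20 (12), OO with ethanol at day 20 (13, 14 and 15), CCl4 with chow at day 20 (16 and 17), CCl4 with ethanol at day 20 (18, 19 and 20), OO with chow at day 23 (5) and OO with ethanol at day 23 (6). Day 23 libraries belong to another substudy in the labels, which do not repeat OO for their second phase as they do at day 20. Days are those of the labels. The names of the deposited tables give another day where the labels give day 20 or 23. Libraries are called by their label numbers; nothing in the labels ties each to an animal of its own, so p-values measure only the spread between these samples. Depth was 10347844 to 28843258 counts in genes, of which the 46 genes together held 511 to 29724. One count was worth 0.0377 to 0.0991 CPM (counts relative to library size, scaled with TMM factors), which sets the grain of the low values below. Summed markers of hepatocytes, the main liver cell, were at 98760 to 141400 CPM in every library. Markers of exocrine pancreas stood at 186.5 CPM in library 12 and 183 CPM in library 6, against 6.32 to 14.5 CPM in the other libraries. OO chow below means the average of libraries 12 and 5, and results that use it are also given with libraries 6 and 12 left out.

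Mitosis starts when cyclin B and its kinase CDK1 become active, and ends when the anaphase-promoting complex destroys cyclin B and a contractile ring splits the cell. Most of the genes for this are switched on together in G2, the phase after DNA replication, by the transcription factor FOXM1 and by B-MYB bound to the MuvB complex, and are held off in resting cells. Adult hepatocytes mostly rest outside the cycle and divide after injury. The word TTTGAA in promoters is the core of the cell cycle homology region that MuvB complexes contact, and CCAAT is the site of NF-Y, which acts with it on many of these promoters.

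Promoter sequence was at hand in the RefSeq table (GRCm38.p6, 250 bases before to 50 after the start) for 38 of the 46 genes. TTTGAA stood on either strand in 29 of the 38 (76.3%), in 49.1% of 57 other mitosis genes, in 17.9% of 39 genes of DNA replication and G1/S, and in 12.5% of the 11210 tested genes with an entry. The corresponding shares for CCAAT were 76.3%, 64.9%, 59.0% and 38.6%, and for both words in the same promoter 68.4%, 36.8%, 10.3% and 5.13%. Over all 27025 promoters of the table, TTTGAA stood in 18.1%, CCAAT in 37.9% and both in 7.12%. A match describes letters only. Windows upstream of the start are shown for 6 of the genes that carry both words, to let the spacing of the words be seen. These genes were picked because both words lay within 150 bases before the start, outside annotated exons. They read 5′ to 3′ on the gene's strand, with TTTGAA and CCAAT or their reverse complements TTCAAA and ATTGG in capitals, and no 2 matches overlap in them.
Cdk1, chr10:69352939-69353062, minus strand: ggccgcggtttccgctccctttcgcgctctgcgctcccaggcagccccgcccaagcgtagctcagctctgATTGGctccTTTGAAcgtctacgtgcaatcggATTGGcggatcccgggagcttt
Cdc20, chr4:118437353-118437493, minus strand: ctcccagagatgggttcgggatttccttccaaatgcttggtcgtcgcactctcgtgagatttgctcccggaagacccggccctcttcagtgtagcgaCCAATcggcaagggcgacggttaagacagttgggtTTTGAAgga
Kif11, chr19:37376232-37376381, plus strand: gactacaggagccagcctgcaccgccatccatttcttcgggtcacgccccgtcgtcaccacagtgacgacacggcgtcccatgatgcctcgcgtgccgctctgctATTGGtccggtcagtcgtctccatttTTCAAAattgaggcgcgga
Ckap2l, chr2:129297213-129297362, minus strand: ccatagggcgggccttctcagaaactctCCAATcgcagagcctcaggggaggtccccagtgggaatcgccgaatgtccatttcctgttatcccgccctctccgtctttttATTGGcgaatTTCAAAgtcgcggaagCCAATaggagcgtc
Mki67, chr7:135716380-135716529, minus strand: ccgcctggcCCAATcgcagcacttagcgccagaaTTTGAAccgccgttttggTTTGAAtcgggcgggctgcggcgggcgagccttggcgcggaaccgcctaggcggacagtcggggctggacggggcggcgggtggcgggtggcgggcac
Top2a, chr11:99024190-99024339, minus strand: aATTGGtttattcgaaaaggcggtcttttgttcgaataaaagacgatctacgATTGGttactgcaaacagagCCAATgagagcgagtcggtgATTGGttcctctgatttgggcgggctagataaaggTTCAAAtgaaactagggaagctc

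Positions are counted from the RefSeq start of the gene, with -1 the base before it. The windows of Cdk1 and Cdc20 end 26 and 9 bases short of that start, because exons of the GENCODE M21 annotation begin there, and the other 4 windows run up to it. Within the printed windows the TTTGAA match nearest to the start began at position -71 in Cdk1, -18 in Cdc20, -19 in Kif11, -30 in Ckap2l, -98 in Mki67 and -23 in Top2a. Cdk1 has another TTTGAA at -15, in the stretch not printed. In Top2a the window held 4 CCAAT matches and in Ckap2l 3. Genes with and without the word overlapped in how far they differed between CCl4 and OO livers under ethanol, the comparison described next. The log2 change had a median of 4.13 (2.39 to 5.39) in the 29 genes with TTTGAA, of 4.70 (1.99 to 5.48) in the 9 without and of 4.34 (0.87 to 4.83) in the 8 with no entry.

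Summed over the 46 genes, the level separated the CCl4 livers of day 20 from all other libraries. It was 46.9 and 40.9 CPM in OO at day 0 and 168.6 and 131 CPM in CCl4 at day 0. OO libraries with chow held 121 CPM (12) and 90.9 CPM (5), and those with ethanol 54.5, 58.8 and 50.03 CPM at day 20 and 63.5 CPM at day 23. CCl4 with chow reached 676 and 739 CPM, and CCl4 with ethanol 1254, 385 and 992 CPM. The mean was 54.5 ± 4.4 CPM (SD, n = 3) in OO and 877 ± 446 CPM (SD, n = 3) in CCl4 livers with ethanol, and 707.5 ± 44.0 CPM (SD, n = 2) in CCl4 livers with chow. Library 19 of the CCl4 ethanol group stood below both CCl4 chow libraries, while libraries 18 and 20 stood above them. For 43 of the 46 genes all 5 CCl4 libraries of day 20 lay above all 8 OO libraries, a pattern found in 6.67% of the 14778 genes tested. Foxm1, Kif18b and Spc24 were the exceptions. In bulk liver RNA, more cells in mitosis and more of these transcripts per cell cannot be told apart.

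**Figure D1:**
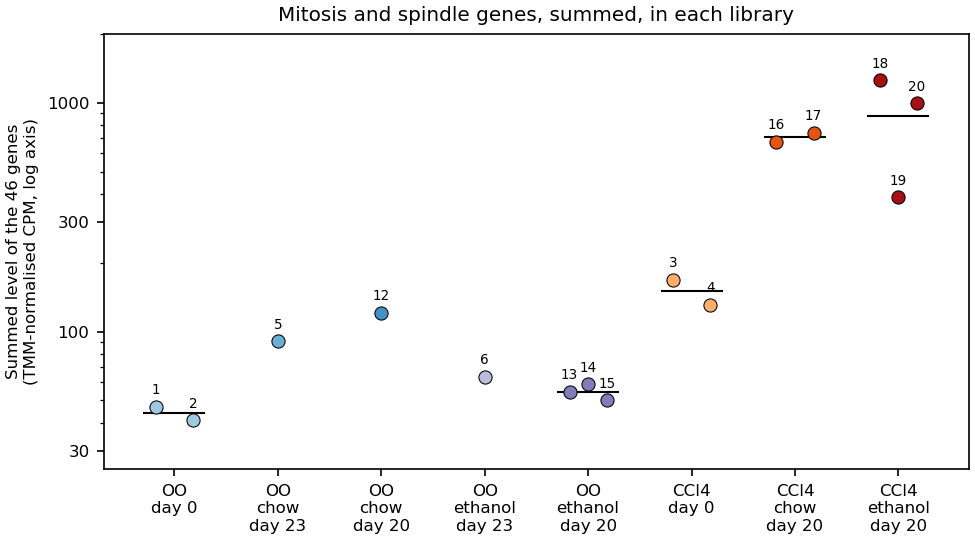
Summed level of the 46 mitosis and spindle genes in each library, in TMM-normalised CPM on a log axis. Points are libraries with their numbers, and horizontal lines are means of groups with more than 1 library. The CCl4 libraries of day 20 sit between 385 and 1254 CPM, above the OO libraries at 40.9 to 121 CPM.

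**Figure D2:**
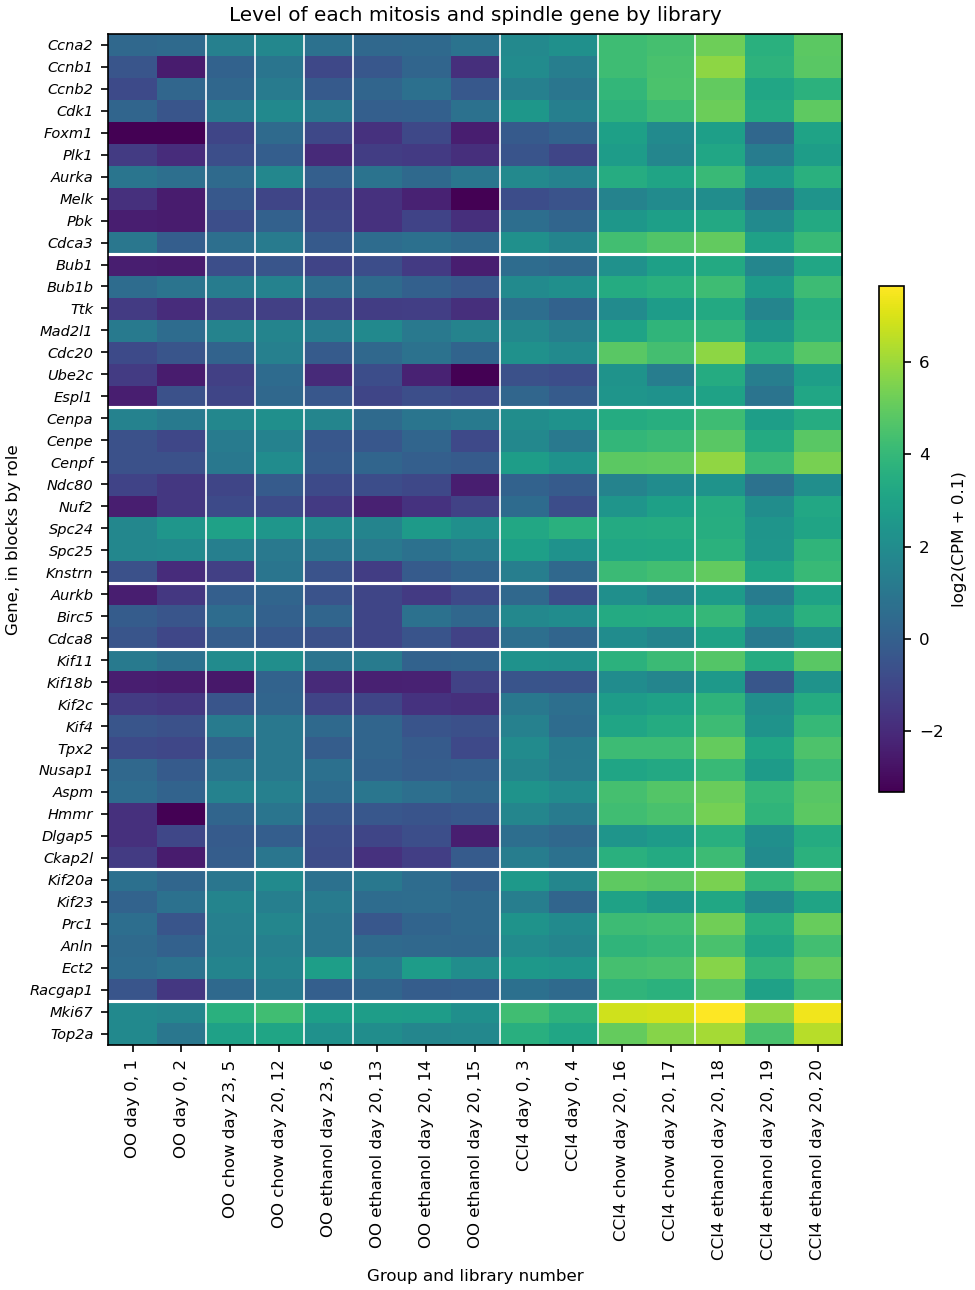
Level of each gene (rows, in blocks by role) in each library (columns), as log2 of CPM + 0.1. The 5 columns of CCl4 at day 20 are bright through nearly all rows, library 19 is the dimmest of its group, and Spc24 varies least between columns.

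Under ethanol, CCl4 livers were set against OO livers at day 20, 3 libraries against 3. This asks what the whole CCl4 course, before and during the ethanol phase, added when both arms received alcohol. The OO arm had no CCl4 in either phase, so the earlier and the continued CCl4 cannot be told apart here. Nearly the whole mitotic set was higher: 45 of the 46 genes were called higher at an adjusted p under 0.05 by edgeR's quasi-likelihood test, while 12.7% of all tested genes were. The groups did not overlap for 45 genes, against 18.8% of tested genes. The median log2 change was 4.30, with -0.04 over all tested genes, and changes ran from 0.87 (Spc24) to 5.48 (Ccnb1). By role, all 10 entry genes, all 7 checkpoint and anaphase genes, 7 of 8 kinetochore genes, all 3 passenger genes, all 10 spindle genes, all 6 cytokinesis genes and both chromosome genes were called. Leaving out each of the 6 libraries in turn gave 45 or 46 calls. OO libraries 13, 14 and 15 came from sequencing lanes 3, 3 and 1, and CCl4 libraries 18, 19 and 20 from lanes 2, 4 and 6. The groups shared no lane, so lane and CCl4 cannot be told apart here.

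Mki67 encodes Ki-67, the coat of mitotic chromosomes used as a proliferation marker, and Top2a encodes topoisomerase II alpha, which untangles sister DNA. Mki67 was at 3.58 and 3.19 CPM in the OO and 19.5 and 13.35 CPM in the CCl4 libraries of day 0, and at 19.5, 12.2 and 7.13 CPM in OO libraries 12, 5 and 6. For Mki67, the day 20 libraries held 6.84, 6.63 and 4.34 CPM in OO with ethanol, 117 and 121 CPM in CCl4 with chow and 199.5, 55.9 and 169.8 CPM in CCl4 with ethanol. Ki-67 mRNA thus stood above every OO value in all CCl4 libraries of day 20, and libraries 5 and 12 stood above the other OO libraries. Under ethanol its log2 change was 4.57 ± 0.42 (SE, adjusted p = 8.48e-05), a 23.7-fold difference. Top2a was at 3.58 and 1.92 CPM in the OO and 11.9 and 8.999 CPM in the CCl4 libraries of day 0, and at 8.69, 7.605 and 4.53 CPM in OO libraries 12, 5 and 6. For Top2a, the day 20 libraries held 4.06, 3.13 and 3.365 CPM in OO with ethanol, 32.9 and 50.4 CPM in CCl4 with chow and 71.6, 22.1 and 89.2 CPM in CCl4 with ethanol. No CCl4 library of day 20 overlapped an OO library in Top2a either, and the log2 change under ethanol was 4.13 ± 0.47 (SE, adjusted p = 0.000192).

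Entry into mitosis is driven by cyclins A2, B1 and B2 (Ccna2, Ccnb1, Ccnb2), by the kinase they bind (Cdk1) and by the kinases PLK1 and Aurora A (Plk1, Aurka). Cdk1 was at 1.101 and 0.639 CPM in the OO and 5.45 and 2.57 CPM in the CCl4 libraries of day 0, and at 3.56, 2.145 and 1.999 CPM in OO libraries 12, 5 and 6. For Cdk1, the day 20 libraries held 0.892, 0.9397 and 1.59 CPM in OO with ethanol, 13.5 and 18.1 CPM in CCl4 with chow and 35.95, 10.4 and 30.4 CPM in CCl4 with ethanol. No CCl4 library of day 20 overlapped an OO library, and the log2 change under ethanol was 4.498 ± 0.501 (SE, adjusted p = 0.000167). Ccnb1 was at 0.642 and 0.07985 CPM in the OO and 3.82 and 2.47 CPM in the CCl4 libraries of day 0, and at 1.82, 0.975 and 0.415 CPM in OO libraries 12, 5 and 6. For Ccnb1, the day 20 libraries held 0.694, 1.096 and 0.177 CPM in OO with ethanol, 18.9 and 22.2 CPM in CCl4 with chow and 54.01, 13.4 and 28.9 CPM in CCl4 with ethanol. Ccnb1 had the largest change of the 46 genes, 5.48 ± 0.62 (SE, adjusted p = 0.000181) on the log2 scale. Ccna2 was at 1.19 and 1.28 CPM in the OO and 3.44 and 4.45 CPM in the CCl4 libraries of day 0, and at 3.24, 2.6 and 1.58 CPM in OO libraries 12, 5 and 6. For Ccna2, the day 20 libraries held 1.19, 1.25 and 1.68 CPM in OO with ethanol, 18.5 and 21.2 CPM in CCl4 with chow and 37.8, 12.45 and 29.55 CPM in CCl4 with ethanol. Its log2 change, 4.28 ± 0.39 (SE, adjusted p = 7.09e-05), had the smallest p of the entry genes. Foxm1 encodes the transcription factor of the group. Foxm1 was at 0 and 0 CPM in the OO and 0.751 and 0.989 CPM in the CCl4 libraries of day 0, and at 1.265, 0.39 and 0.415 CPM in OO libraries 12, 5 and 6. For Foxm1, the day 20 libraries held 0.198, 0.418 and 0.0885 CPM in OO with ethanol, 7.31 and 3.72 CPM in CCl4 with chow and 7.26, 1.165 and 8.17 CPM in CCl4 with ethanol. The 2 OO libraries of day 0 held no Foxm1 read, and CCl4 library 19 lay above the OO ethanol libraries but below OO chow library 12. The log2 change of Foxm1 under ethanol was 4.36 ± 0.78 (SE, adjusted p = 0.00296). Of the other entry genes, Ccnb2 rose by 3.94, Plk1 by 4.57 and Aurka by 2.903 on the log2 scale. Melk and Pbk, kinases made in mitotic cells, rose by 5.03 and 4.83, and Cdca3, which helps degrade the CDK1 inhibitor WEE1, by 3.72. Melk and Pbk held only 4 and 11 counts summed over the 3 OO ethanol libraries.

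The spindle checkpoint delays anaphase until every chromosome is attached, through BUB1, BUBR1 (Bub1b), MPS1 (Ttk) and MAD2 (Mad2l1). Anaphase follows when CDC20 activates the anaphase-promoting complex, UBE2C supplies it with ubiquitin and separase (Espl1) cuts cohesin. Bub1b was at 1.38 and 1.76 CPM in the OO and 3.69 and 4.25 CPM in the CCl4 libraries of day 0, and at 2.845, 2.34 and 1.396 CPM in OO libraries 12, 5 and 6. For Bub1b, the day 20 libraries held 1.29, 0.9397 and 0.708 CPM in OO with ethanol, 10.5 and 12.2 CPM in CCl4 with chow and 18.5, 6.315 and 18.02 CPM in CCl4 with ethanol. Bub1b had the smallest p of this role, with a log2 change under ethanol of 3.87 ± 0.41 (SE, adjusted p = 0.000135). Mad2l1 was at 2.203 and 1.36 CPM in the OO and 3.38 and 2.47 CPM in the CCl4 libraries of day 0, and at 3.003, 2.86 and 2.34 CPM in OO libraries 12, 5 and 6. For Mad2l1, the day 20 libraries held 3.57, 2.09 and 2.92 CPM in OO with ethanol, 8.19 and 14.5 CPM in CCl4 with chow and 14.8, 5.52 and 13.1 CPM in CCl4 with ethanol. Mad2l1 was already at 1.36 to 3.57 CPM in OO livers and had the smallest change of the role, 1.99 ± 0.39 (SE, adjusted p = 0.00385). The remaining 5 rose by 3.702 (Espl1), 4.55 (Cdc20), 4.699 (Bub1), 4.89 (Ttk) and 5.18 (Ube2c). Ube2c held only 7 counts summed over the 3 OO ethanol libraries. Exons of Ube2c share 22.8% of their bases with Tnnc2 in the GENCODE M21 annotation, and use of strand in the counting is not given in the sources used here.

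Kinetochores form on the centromere, marked by the histone CENP-A, and hold microtubules through the 4-subunit NDC80 complex. Cenpf was at 0.551 and 0.559 CPM in the OO and 6.76 and 4.65 CPM in the CCl4 libraries of day 0, and at 3.87, 2.015 and 0.7545 CPM in OO libraries 12, 5 and 6. For Cenpf, the day 20 libraries held 1.09, 0.8875 and 0.797 CPM in OO with ethanol, 29.3 and 30.5 CPM in CCl4 with chow and 56.9, 17.8 and 41.4 CPM in CCl4 with ethanol. Cenpf, a large protein of the outer kinetochore, had the smallest p of this role, 5.39 ± 0.43 (SE, adjusted p = 3.94e-05). The 4 subunits of the NDC80 complex changed by unequal amounts. Nuf2 rose by 5.16 ± 0.55 (SE), Ndc80 by 3.35 ± 0.52 and Spc25 by 2.47 ± 0.35 on the log2 scale. Nuf2 and Ndc80 held only 9 and 14 counts summed over the 3 OO ethanol libraries. Spc24 was at 3.304 and 5.27 CPM in the OO and 9.39 and 12.2 CPM in the CCl4 libraries of day 0, and at 5.37, 7.67 and 3.697 CPM in OO libraries 12, 5 and 6. For Spc24, the day 20 libraries held 2.97, 6.11 and 4.34 CPM in OO with ethanol, 10.2 and 10.7 CPM in CCl4 with chow and 11.4, 5.15 and 8.33 CPM in CCl4 with ethanol. Spc24 was the only gene of the 46 not called, at 0.87 ± 0.32 (SE, adjusted p = 0.0702), and the only one whose highest value lay in a CCl4 library of day 0 (library 4). It was called when library 14 or library 19 was left out, when the day 23 library joined OO with ethanol, and by DESeq2. Per kilobase of exon, the OO ethanol mean was 1.74 CPM for Spc24 and 0.0348 CPM for Nuf2. Length here is all annotated exon bases of the gene, 2573 and 6341, which can exceed that of the mRNA made. Cenpa rose by 2.77, the kinetochore motor gene Cenpe by 4.81 and Knstrn by 4.703.

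The chromosomal passenger complex corrects faulty attachments and later marks the division plane, with Aurora B (Aurkb) as its kinase and survivin (Birc5) and borealin (Cdca8) as its anchors. Aurkb was at 0.0918 and 0.2395 CPM in the OO and 1.19 and 0.494 CPM in the CCl4 libraries of day 0, and at 1.11, 0.9101 and 0.604 CPM in OO libraries 12, 5 and 6. For Aurkb, the day 20 libraries held 0.396, 0.261 and 0.443 CPM in OO with ethanol, 4.32 and 2.99 CPM in CCl4 with chow and 6.455, 2.33 and 7.83 CPM in CCl4 with ethanol. Aurkb rose by 3.94 ± 0.54 (SE, adjusted p = 0.0005215). Cdca8 was at 0.642 and 0.399 CPM in the OO and 1.503 and 1.09 CPM in the CCl4 libraries of day 0, and at 0.711, 0.845 and 0.566 CPM in OO libraries 12, 5 and 6. For Cdca8, the day 20 libraries held 0.396, 0.626 and 0.354 CPM in OO with ethanol, 3.88 and 2.99 CPM in CCl4 with chow and 7.89, 2.15 and 4.46 CPM in CCl4 with ethanol. Cdca8 rose by 3.32 ± 0.49 (SE, adjusted p = 0.000804) and Birc5 by 3.28. For all 3 genes the ethanol groups stood apart, with the lowest CCl4 value in library 19.

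Spindle motors and assembly factors include the kinesin that pushes poles apart (Kif11), microtubule depolymerases (Kif2c, Kif18b), the Aurora A activator TPX2 and ASPM, which works at the poles. Aspm was at 1.38 and 1.04 CPM in the OO and 4.82 and 3.86 CPM in the CCl4 libraries of day 0, and at 2.61, 2.795 and 1.32 CPM in OO libraries 12, 5 and 6. For Aspm, the day 20 libraries held 1.88, 1.51 and 1.15 CPM in OO with ethanol, 20.99 and 26.2 CPM in CCl4 with chow and 34.85, 15.6 and 27.4 CPM in CCl4 with ethanol. Aspm had the smallest p of all 46 genes, 4.100 ± 0.32 (SE, adjusted p = 3.51e-05), and no CCl4 library of day 20 fell within the OO range. Kif18b was at 0.0918 and 0.07985 CPM in the OO and 0.626 and 0.593 CPM in the CCl4 libraries of day 0, and at 1.03, 0.065 and 0.151 CPM in OO libraries 12, 5 and 6. For Kif18b, the day 20 libraries held 0.0991, 0.104 and 0.354 CPM in OO with ethanol, 3.95 and 3.05 CPM in CCl4 with chow and 5.99, 0.674 and 4.88 CPM in CCl4 with ethanol. Kif18b, with few counts per library, had the largest p of this role, 4.39 ± 0.79 (SE, adjusted p = 0.002435), and its library 19 value fell below that of OO library 12. The other changes were 3.92 (Nusap1), 3.96 (Kif11), 4.14 (Kif4), 4.61 (Dlgap5), 4.73 (Ckap2l), 4.82 (Tpx2), 5.23 (Kif2c) and 5.39 (Hmmr), all called higher.

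Cytokinesis, the physical split, needs PRC1 to bundle the central spindle, centralspindlin (Kif23, Racgap1) to recruit the RhoA activator ECT2, and anillin (Anln) to build the ring. Hepatocytes can skip it, and those that do so become binucleate or polyploid. Anln was at 1.285 and 0.958 CPM in the OO and 3.82 and 3.065 CPM in the CCl4 libraries of day 0, and at 2.61, 2.535 and 1.85 CPM in OO libraries 12, 5 and 6. For Anln, the day 20 libraries held 1.29, 1.201 and 1.15 CPM in OO with ethanol, 14.4 and 15.7 CPM in CCl4 with chow and 22.3, 8.83 and 19.95 CPM in CCl4 with ethanol. Anln had the smallest p of this role, 3.81 ± 0.34 (SE, adjusted p = 6.88e-05). Kif23 was at 1.01 and 1.597 CPM in the OO and 2.44 and 1.09 CPM in the CCl4 libraries of day 0, and at 2.53, 2.99 and 2.23 CPM in OO libraries 12, 5 and 6. For Kif23, the day 20 libraries held 1.39, 1.41 and 1.24 CPM in OO with ethanol, 7.75 and 5.71 CPM in CCl4 with chow and 9.28, 3.74 and 8.25 CPM in CCl4 with ethanol. Kif23 had the smallest change of the role, 2.39 ± 0.39 (SE, adjusted p = 0.00139), though its centralspindlin partner Racgap1 rose by 4.26 ± 0.46. Prc1 rose by 4.797, Kif20a, the kinesin that carries the passenger complex to the midzone, by 4.32 and Ect2 by 2.87. Exons of 13 of the 46 genes share bases with another gene in the annotation. Beside Ube2c the largest shares are those of Kif20a (29.3%, Cdc23), Kif4 (15.1%, Pdzd11), Ccna2 (12.5%, Exosc9) and Prc1 (11.1%, Rccd1), and the other 8 run from 1.35% to 7.09%. Reads set aside as ambiguous were 0.346% to 0.682% of the reads listed. Whether reads over shared bases went there, to these genes or to the neighbour is not known.

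**Figure D3:**
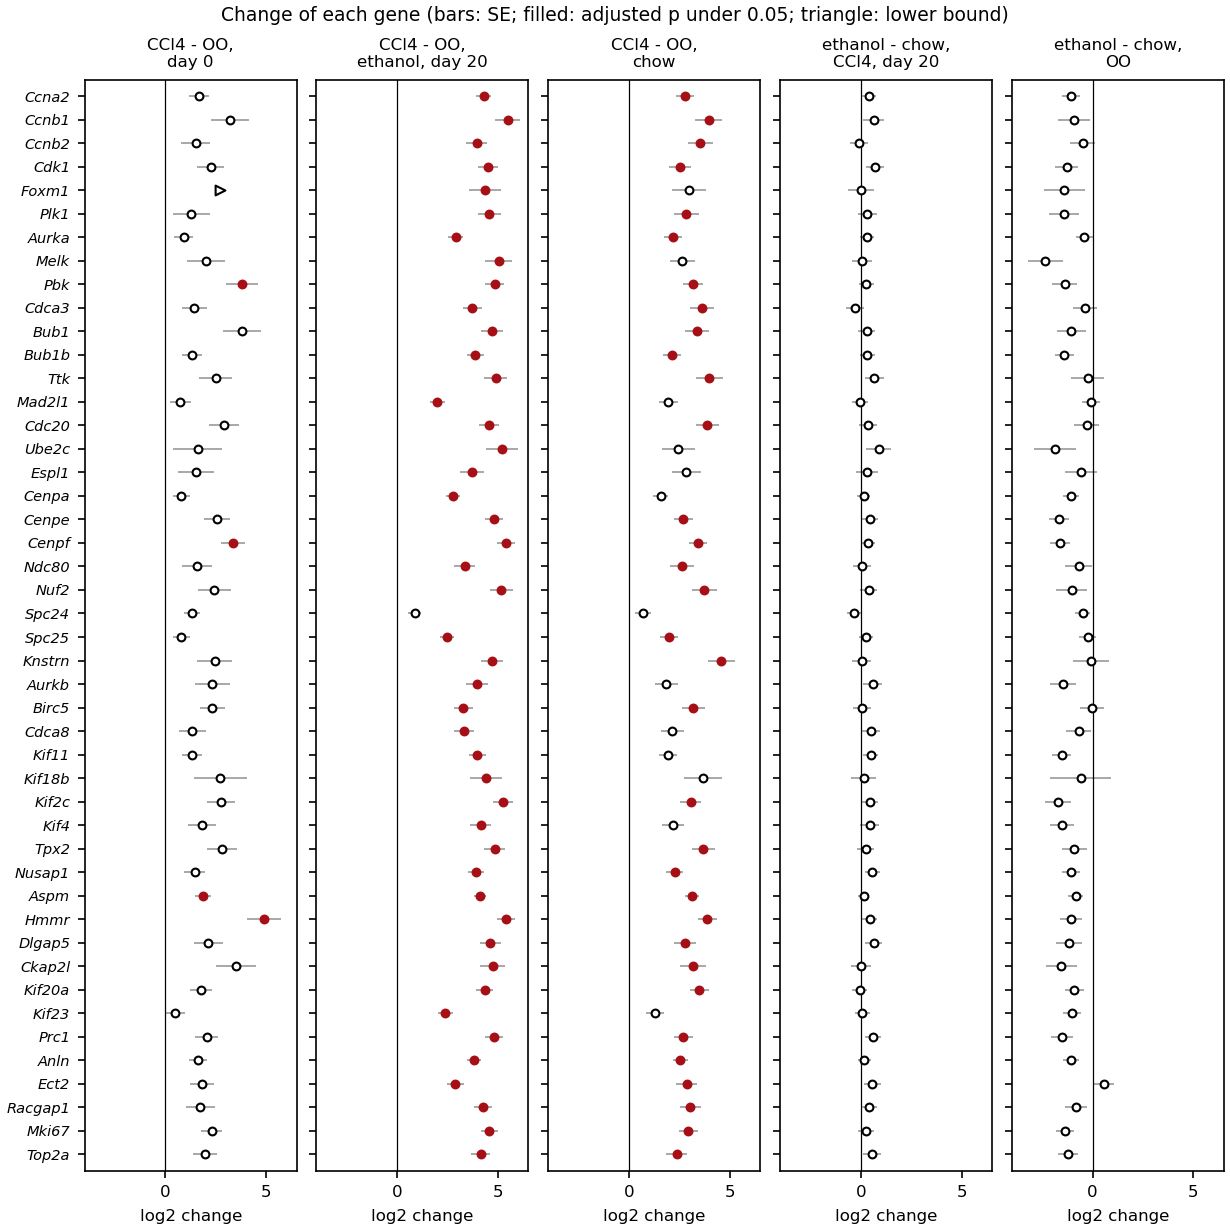
Log2 change of each gene in 5 comparisons, with standard errors as bars. Filled points passed an adjusted p under 0.05, and the triangle is the lower bound for Foxm1, which had no read in the OO libraries of day 0. Under ethanol 45 points are filled, in the chow comparison 33, at day 0 4, and in both ethanol against chow panels 0.

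The spread within the CCl4 ethanol group was wide and shared by the genes. Library 18 held the highest value of all 15 libraries for 34 genes, library 20 for 11 and library 4 for 1 (Spc24). Library 19 was the lowest of its group for all 46 genes. The ratio of the highest to the lowest library in the group had a median of 3.26 and ran from 2.21 (Spc24) to 8.88 (Kif18b). Other lists did not all follow library 19: summed macrophage markers were 2555, 2461 and 2140 CPM in libraries 18, 19 and 20, while stellate cell and myofibroblast markers were 1322, 761 and 1288 CPM and replication genes 681, 364.5 and 838 CPM.

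Per kilobase of exon, the most abundant of the 46 in CCl4 livers with ethanol were Cdc20 at 17.0 CPM per kb, Mki67 at 14.1, Ccnb2 at 11.7 and Ccnb1 at 7.61, with Ndc80 the lowest at 0.544. The order depends on the length used, which joins the exons of all GENCODE M21 transcripts of a gene (1868 bases for Cdc20, 6493 for Ndc80). The length of the transcripts present in these livers was not measured. As shares of the summed level, the kinetochore genes took 24.7% and 30.9% in OO at day 0 and 13.5% to 15.6% in the 5 CCl4 libraries of day 20. In OO livers with ethanol at day 20 they took 16.6%, 22.01% and 23.01%, in OO libraries 12, 5 and 6 17.8%, 20.8% and 17.9%, and in CCl4 at day 0 21.1% and 23.4%. Spindle motor and assembly genes took 11.1% to 16.7% in the 8 OO libraries, 17.1% and 16.2% in CCl4 at day 0 and 17.4% to 19.0% in CCl4 at day 20, so the CCl4 range of day 20 began close to the highest values of the other libraries.

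Other genes of the cell cycle were counted from lists. Of 76 other mitosis genes, 60 were called higher and 2 lower under ethanol, with a median log2 change of 2.55. Casc5, the kinetochore scaffold KNL1, changed by 4.73 ± 0.43 (SE, adjusted p = 7.55e-05) and Ckap2, a spindle protein, by 5.72 ± 0.56 (SE, adjusted p = 9.37e-05). Iqgap3 rose by 5.09 and Sgol2a, a protector of cohesin, by 4.73. Of 49 genes of DNA replication and G1/S, the step before, 25 were called higher and 2 lower, and the median was 1.10. Ccnd1 (cyclin D1, which acts at entry into the cycle) was at 25.2, 37.1 and 26.5 CPM in OO and 162, 68.2 and 124 CPM in CCl4 livers with ethanol, a log2 change of 1.99 ± 0.27 (SE, adjusted p = 0.0005235). Ccne1 (cyclin E1) changed by 1.73 ± 0.49 (SE, adjusted p = 0.02475), Dbf4, a replication activator, by 2.13 ± 0.31 (SE, adjusted p = 0.0006765) and Clspn (claspin) by 4.71 ± 0.803 (SE, adjusted p = 0.001799). Pcna, the replication clamp, was at 21.5, 31.5 and 29.6 CPM and 36.2, 33.04 and 56.1 CPM, and its log2 value of 0.59 ± 0.22 (SE, adjusted p = 0.0698) did not pass. E2f8, a repressor of E2F targets, was lower in CCl4 livers, at -2.07 ± 0.23 (SE, adjusted p = 0.000154).

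Of 18 tested CDK inhibitors and p53 targets, 7 were called higher, with a median log2 change of 0.48. Cdkn1a encodes p21, which blocks cyclin-CDK complexes. It was at 2.97, 1.15 and 0.531 CPM in OO and 10.2, 6.19 and 8.08 CPM in CCl4 livers with ethanol, and rose by 2.45 ± 0.49 (SE, adjusted p = 0.00463). Eda2r rose by 3.05, Phlda3 by 2.57, Cdkn2c by 1.46 and Plk2 by 1.04. Of 16 MuvB, RB and E2F genes, 2 were called higher and 3 lower, with a median of 0.18. Mybl1 (A-MYB) was at 2.18, 1.67 and 1.42 CPM and 39.9, 13.2 and 22.1 CPM, a log2 change of 3.85 ± 0.39 (SE, adjusted p = 0.000114). Mybl2 (B-MYB), its relative in the MuvB complex, was at 0.5945, 0.261 and 0.708 CPM and 1.22, 0.613 and 1.77 CPM, and its value of 1.25 ± 0.61 (SE, adjusted p = 0.171) did not pass. Rbl1 (p107) rose by 1.66, while E2f6 fell by 0.73 and Rbbp4 by 0.35.

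**Figure D4:**
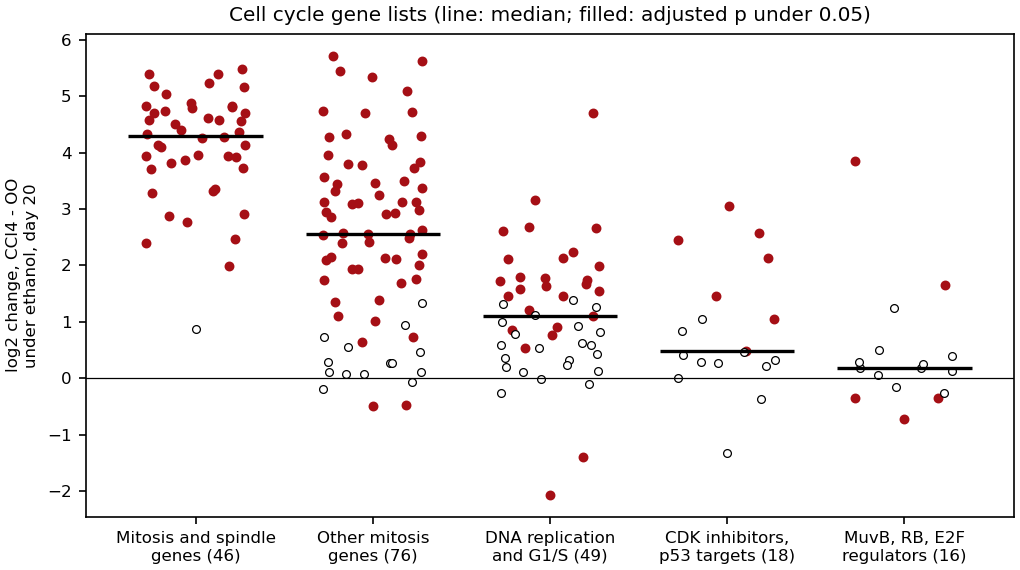
Log2 change of each tested gene between CCl4 and OO livers under ethanol at day 20, by list, with the number tested in brackets. Lines are medians, 4.30, 2.55, 1.10, 0.48 and 0.18 from left to right, and filled points passed an adjusted p under 0.05.

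Markers of other cells moved with the mitotic genes under ethanol. Of 14 macrophage markers 11 were called higher and 1 lower, with Gpnmb at 5.99, Trem2 at 4.00, Lgals3 at 3.19 and Lyz2 at 2.49 on the log2 scale, and the summed level was 742 to 1006 CPM in OO and 2140 to 2555 CPM in CCl4 livers. Of 11 stellate cell and myofibroblast markers 6 were higher (Col3a1 2.53, Col1a2 2.41, Pdgfrb 1.49, Reln 1.099), with sums of 281 to 433 and 761 to 1322 CPM. Of 8 neutrophil and myeloid progenitor markers 5 were higher (Mpo 4.29, Elane 3.25, S100a8 2.36, S100a9 2.18), with sums of 17.6 to 39.4 and 77.9 to 158.6 CPM. Of 7 tested cholangiocyte markers 3 were higher (Cftr, Cldn4 and Epcam), with sums of 7.62 to 13.8 and 12.9 to 18.9 CPM. Of 12 lymphocyte markers 0 were called by edgeR, and their sums were 3.81 to 4.76 and 6.65 to 10.3 CPM. Of the 8 endothelial markers 1 was lower (Kdr), of 5 tested erythroid markers 1 was lower (Alas2), and of 10 hepatocyte markers Trf was higher and Cyp2e1 lower. The part of these cells in the mitotic result was not tested.

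At day 0 the comparison asks how far 6 weeks of CCl4 had moved these genes before any ethanol, 2 libraries against 2. All 46 log2 changes were positive (50.8% of tested genes were), with a median of 1.90 against 0.01 over all tested genes, and the median was the same with Foxm1 set at its lower bound. Of the 46, 4 genes passed, where 0.947% of tested genes were called higher, while 33 had an unadjusted p under 0.05 (17% of tested genes, in either direction). Every gene but Kif23 had both CCl4 libraries above both OO libraries, a pattern of 30.5% of tested genes.

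The 4 were Hmmr and Aspm of the spindle, Cenpf of the kinetochore and the kinase gene Pbk. Hmmr was at 0.1835 and 0 CPM in OO and 3.19 and 2.27 CPM in CCl4 livers, 2 counts against 74, a ratio of 33.2 with a 95% counting interval of 8.88 to 279 and an adjusted p of 0.01385. Pbk went from 2 counts to 34, a ratio of 15.3 (3.91 to 131) with an adjusted p of 0.0364. Cenpf, with values given above, changed by 3.36 ± 0.59 (SE, adjusted p = 0.01385) and Aspm by 1.86 ± 0.42 (SE, adjusted p = 0.04755). Foxm1 had 0 counts in the OO libraries and 22 in the CCl4 libraries, so it was at least 6.59-fold higher against a floor of 3 counts over the group, with an adjusted p of 0.1445. Mki67 changed by 2.29 ± 0.53 (SE, adjusted p = 0.0526), which did not pass. DESeq2 called 23 of the genes and a fit of these 4 libraries alone 29, whereas leaving out any of the 4 libraries left 1 call (Hmmr, without library 1) or 0. Over all genes, both DESeq2 and the fit of these libraries alone also called more than the main fit, as given in the last section. With lane as a random block in limma-voom none of the 4 passed, and 0 of the 46 were called. That fit changed the test along with the block, and limma-voom was not run without the block. Its consensus correlation within lane was -0.082. The OO libraries came from lanes 1 and 3 and the CCl4 libraries from lanes 4 and 6, so lane and CCl4 cannot be told apart. Among other lists 4 of 76 other mitosis genes, Casc5 (2.66) and Iqgap3 (3.49) with them, and 0 of 49 replication genes were called higher by edgeR. For 25 of the 46 genes both CCl4 libraries of day 0 stood above all 8 OO libraries, as in 8.11% of tested genes.

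Markers of macrophages went the other way in summed level at day 0, at 852 and 761 CPM in OO and 581 and 547 CPM in CCl4 livers. The list was split, with a positive log2 change in 6 of 14, and 1 marker was called higher (Gpnmb, 6.42) and 1 lower (Csf1r, -0.74). Among those that did not pass, Mmp12 stood at 5.11 and Trem2 at 1.97, and Timd4 at -1.24 and Cd5l at -0.94. Neutrophil and progenitor markers were at 51.7 and 16.3 CPM and at 13.4 and 6.03 CPM, with 1 of 8 called lower. Stellate cell markers were at 372 and 271 CPM and at 723 and 645 CPM, with 1 of 11 called higher. Sums were also higher without overlap for erythroid progenitor markers (104.7 and 136 CPM against 197 and 196 CPM), lymphocyte markers (6.06 and 9.42 CPM against 14.3 and 14.3 CPM) and cholangiocyte markers (11.4 and 7.905 CPM against 13.3 and 26.8 CPM). Of these 3 lists 0 genes were called, and the log2 change was positive in 4 of 5, 8 of 12 and 7 of 7 tested genes. The part of these cells in the day 0 result was not tested.

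CCl4 livers with chow at day 20 were then compared with CCl4 livers at day 0, 2 libraries against 2. These are separate libraries, and only those of day 20 carry a substudy number in their labels. Without CCl4, the 46 genes summed to 46.9 and 40.9 CPM at day 0 and to 121 and 90.9 CPM in OO chow. In CCl4 livers the sums were 168.6 and 131 CPM at day 0 and 676 and 739 CPM with chow at day 20. Time, substudy label and the second phase of CCl4 change together in this comparison and cannot be told apart. Of the 46 genes 39 were called higher at day 20, against 7.27% of tested genes, with a median log2 change of 2.26 (0.02 over all tested genes). All but Spc24 had both day 20 libraries above both day 0 libraries, a pattern of 30.9% of tested genes. Aspm changed by 2.43 ± 0.35 (SE, adjusted p = 0.002196), Hmmr by 2.92 ± 0.45 (SE, adjusted p = 0.003003), Racgap1 by 3.21 ± 0.53 (SE, adjusted p = 0.004145) and Mki67 by 2.84 ± 0.47 (SE, adjusted p = 0.00435). The largest change was in Knstrn, which helps align chromosomes, at 3.28. Spc24 stood at -0.04 ± 0.38 (SE, adjusted p = 0.963) and Spc25, its partner in the NDC80 complex, at 0.597 ± 0.39 (SE, adjusted p = 0.3702), and the other genes of the 46 not called were Foxm1, Ube2c, Birc5, Cdca8 and Kif18b.

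Other mitosis genes gave 24 calls of 76 and replication genes 1 of 49. Cdkn1a was at 1.503 and 1.98 CPM at day 0 and 25.7 and 9.96 CPM at day 20, a log2 change of 3.37 ± 0.600 (SE, adjusted p = 0.006015). Markers that moved alongside were those of macrophages (12 of 14 higher, 547 to 581 CPM against 1522 to 2187 CPM), neutrophils and myeloid progenitors (8 of 8 higher, 6.03 to 13.4 CPM against 187.5 to 212 CPM) and stellate cells (4 of 11 higher, 645 to 723 CPM against 1355 to 1811 CPM). Their part was not tested. The count rested on each library: without library 4 it was 1 and without library 3 it was 6, and it was 17 without library 16 and 13 without library 17. With lane as a random block in limma-voom 21 were called.

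With chow instead of ethanol, CCl4 livers of day 20 were set against OO chow. All 46 genes lay higher in both CCl4 libraries than in both OO chow libraries, as did 22.2% of tested genes, and 33 were called higher, where 1.73% of tested genes were. The median log2 change was 2.83 (-0.0025 over all tested genes). Aspm changed by 3.12 ± 0.36 (SE, adjusted p = 0.00284), Hmmr by 3.88 ± 0.48 (SE, adjusted p = 0.00413), Cenpf by 3.41 ± 0.45 (SE, adjusted p = 0.00681) and Kif20a by 3.47 ± 0.47 (SE, adjusted p = 0.00723). Hmmr, a microtubule binder of the spindle poles, was at 1.82 and 1.105 CPM in OO libraries 12 and 5 and 19.5 and 22.5 CPM in CCl4 libraries 16 and 17. Kif20a was at 3.715 and 1.885 CPM and 30.5 and 28.4 CPM. Knstrn had the largest change, 4.58, and Spc24 the smallest, 0.704. By role 8 of 10 entry genes, 4 of 7 checkpoint and anaphase genes, 6 of 8 kinetochore genes, 1 of 3 passenger genes (Birc5), 7 of 10 spindle genes, 5 of 6 cytokinesis genes and both chromosome genes were called.

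Of 76 other mitosis genes 19 were higher and of 49 replication genes 1. The log2 value of Mybl1 was 2.65 ± 0.47 (SE, adjusted p = 0.0183), and those of Ccnd1 and Cdkn1a, which did not pass, were 0.94 and 1.62. Summed macrophage markers were 1990 and 1182 CPM in OO chow (libraries 12 and 5) and 1522 and 2187 CPM in CCl4 chow, so the groups overlapped, with 2 of 14 called higher. Stellate cell markers did not overlap, at 668 and 359 CPM against 1355 and 1811 CPM, with 4 of 11 higher. Neutrophil and progenitor markers were at 84.1 and 39.8 CPM against 187.5 and 212 CPM, with 1 of 8 higher. Lymphocyte markers (11.5 and 7.865 CPM against 18.6 and 16.0 CPM) and cholangiocyte markers (8.54 and 10.8 CPM against 15.3 and 17.9 CPM) did not overlap either, with 0 called. The part of these cells in the chow result was not tested. Without library 12, and without libraries 6 and 12 together, 22 of the 46 were called, without library 5 the count was 1, without library 16 it was 22 and without library 17 it was 5. Library 12 shares day and substudy with the CCl4 libraries, while library 5 is of day 23 and another substudy. Leaving out library 5 thus leaves library 12 as the only control. The limma-voom fit with lane as a random block called 6.

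CCl4 livers with ethanol were also set against OO chow, the arm with both agents against that with neither. Of the 46 genes 44 were called higher, against 6.44% of tested genes, and 43 had no overlap (21.6% of tested genes). The median log2 change was 3.21, with 0.01 over all tested genes. Aspm changed by 3.26 ± 0.35 (SE, adjusted p = 0.000305), Hmmr by 4.31 ± 0.47 (SE, adjusted p = 0.000339), Cenpf by 3.79 ± 0.44 (SE, adjusted p = 0.000504) and Ccna2 by 3.19 ± 0.41 (SE, adjusted p = 0.000924). Spc24 (0.38 ± 0.35 (SE, adjusted p = 0.548)) and Kif23 (1.37 ± 0.41 (SE, adjusted p = 0.05715)) did not pass. Of 76 other mitosis genes 47 were called higher, and of 49 replication genes 7 higher and 2 lower. For other cells, 7 of 14 macrophage markers were called higher and 1 lower, and 5 of 11 stellate cell and 1 of 7 tested cholangiocyte markers higher. Of 10 hepatocyte markers 1 was higher and 2 were lower. Lower calls also fell on 1 of 12 lymphocyte, 1 of 5 tested erythroid and 1 of 8 endothelial markers, and 0 of 8 neutrophil and progenitor markers were called. Without library 5 the count of the 46 fell to 24, with libraries 6 and 12 left out it was 38, with the lane block 37, and in a fit of these libraries alone it was 28. This comparison shares its controls with the chow comparison and its CCl4 libraries with the ethanol comparison, so the 3 are not independent.

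Within CCl4 animals, ethanol was compared with chow at day 20, 3 libraries against 2, to ask what alcohol and its diet added to continued CCl4. No gene of the 46 passed: 0 were called by edgeR and 0 by DESeq2, and 0 had an unadjusted p under 0.05, while 1.27% of tested genes were called and 11.8% had such a p. Log2 changes were positive for 41 of the 46 (51.1% of tested genes), with a median of 0.32, and ran from -0.33 ± 0.34 (Spc24) to 0.89 ± 0.62 (Ube2c). Mki67 was at 117 and 121 CPM with chow and 199.5, 55.9 and 169.8 CPM with ethanol, a log2 value of 0.26 ± 0.39 (SE, adjusted p = 0.853). Cdk1 stood at 0.696 ± 0.45 (SE, adjusted p = 0.615) and Foxm1 at 0.0025 ± 0.64. The groups overlapped for each of the 46 genes. Without library 19 the median was 0.69, with 0 called and 27 genes at an unadjusted p under 0.05, and without library 18 the median was -0.04. The share of all tested genes with such a p in the fit without library 19 is not given here, so the 27 cannot be set against it. Of 76 other mitosis genes and 49 replication genes 0 were called. Median log2 changes of markers were 0.32 for macrophages, -0.98 for lymphocytes, -1.01 for neutrophils and progenitors and -0.1 for erythroid progenitors. Called lower were 1 of 14 macrophage and 1 of 5 tested erythroid markers, with 0 of 12 lymphocyte and 0 of 8 neutrophil and progenitor markers called. The part of these cells was not tested. Ccnd1 stood at 0.54 ± 0.295 (SE, adjusted p = 0.541), Ccne1 at 1.37 ± 0.54 (SE, adjusted p = 0.335) and Mybl1 at 1.04 ± 0.38 (SE, adjusted p = 0.288), which did not pass.

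Within OO animals, ethanol at day 20 (libraries 13, 14 and 15) was compared with OO chow. Log2 changes were negative for 45 of the 46 genes, where 49.1% of tested genes were negative, with a median of -1.06 against 0.01 over all tested genes. None passed by edgeR: 0 were called lower, where 2.12% of tested genes were, 19 had an unadjusted p under 0.05 (20.7% of tested genes), and DESeq2 called 5 lower (Cenpe, Cenpf, Kif11, Mki67 and Prc1). Over all genes DESeq2 also called more than edgeR in this comparison, as given in the last section. In 28 genes all 3 ethanol libraries lay below both chow libraries, as in 16.6% of tested genes. Mki67 was at 19.5 and 12.2 CPM in chow libraries 12 and 5 and 6.84, 6.63 and 4.34 CPM with ethanol, a log2 value of -1.37 ± 0.44 (SE, adjusted p = 0.0999). Kif11, the spindle kinesin, was at 4.19 and 3.835 CPM and 2.28, 0.992 and 1.06 CPM, with a log2 value of -1.53 ± 0.47 (SE, adjusted p = 0.0841). The lowest value belonged to Melk, at 0.395 and 0.715 CPM and 0.198, 0.104 and 0 CPM, with -2.33 ± 0.87 (SE, adjusted p = 0.151). Ect2 was the exception, at 3.003 and 2.99 CPM with chow and 2.28, 6.525 and 4.07 CPM with ethanol, with 0.56 ± 0.51 (SE, adjusted p = 0.587).

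Day 0 OO livers, which had neither ethanol nor a second phase, summed to 46.9 and 40.9 CPM over the 46 genes, below the chow libraries and below the ethanol libraries of OO animals; that difference was not tested. Macrophage markers were also lower with ethanol in OO animals, with 5 of 14 called lower a median log2 change of -0.70 and sums of 742, 1006 and 777.5 CPM against 1990 and 1182 CPM. Lymphocyte markers had a median of -0.998, with 1 of 12 called lower, and sums of 4.76, 4.33 and 3.81 CPM against 11.5 and 7.865 CPM. Neutrophil and progenitor markers had a median of -0.97, with 0 of 8 called, and sums of 39.4, 17.6 and 30.4 CPM against 84.1 and 39.8 CPM. Erythroid progenitor markers had a median of -0.702, with 1 of 5 tested called lower, and sums of 85.8, 61.65 and 79.5 CPM against 130.9 and 114 CPM. Each of these sums was thus lower in all ethanol libraries than in both chow libraries, as the sum of the 46 genes was, and their part in it was not tested. Of the other lists, 1 of 76 other mitosis genes and 0 of 49 replication genes were called lower. In library 6, the OO ethanol library of day 23, the 46 genes summed to 63.5 CPM, against 90.9 CPM in library 5, its chow counterpart in the same substudy, with 1 library each and no test. Library 12 had the highest sum of the OO libraries, and with libraries 6 and 12 left out the median log2 change of the day 20 comparison was -0.86, with 0 called.

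Finally, the difference between the 2 ethanol comparisons was tested directly, as the interaction of CCl4 and ethanol. All 46 interaction terms were positive, where 47.3% of tested genes had a positive term, with a median of 1.37 (-0.02 over all tested genes). By edgeR and by DESeq2 0 passed, where 0.142% of tested genes were called by edgeR in either direction, and 20 had an unadjusted p under 0.05 (8.3% of tested genes). Kif11 had the smallest adjusted p, with a term of 2.02 ± 0.61 (SE, adjusted p = 0.331), and Ect2 the smallest term, 0.02 ± 0.72 (SE, adjusted p = 0.9999). Mki67 had 1.62 ± 0.595 (SE, adjusted p = 0.466), Cdk1 1.98 ± 0.73 (SE, adjusted p = 0.466) and Cenpf 1.98 ± 0.61 (SE, adjusted p = 0.355). With libraries 6 and 12 left out 0 passed. Without library 19, 5 genes passed (Bub1b, Ccna2, Cenpf, Mki67 and Prc1). The share of all tested genes that passed in that fit is not given here. The term uses the libraries of both ethanol comparisons, so its sign follows from theirs and adds no separate evidence.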

How the data were processed

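Total liver RNA was prepared with the TruSeq mRNA kit, per the labels' protocols. For each library the authors deposited unnormalised read counts by gene symbol. The submitters' processing notes name GSNAP, the build mm10 and DESeq2 1.12.3. How reads were counted, on which annotation and with what strand setting, is not given in the sources used here. The 5 entries per library for reads without a gene were left out. Genes held 41.4% to 53.0% of the reads listed, and reads aligned to several places 18.1% to 28.8%.

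From the counts, TMM scaling, the filterByExpr filter (14778 genes) and edgeR 4.0.16 in R 4.3.3 were used, with 1 mean per group for the 8 groups, 7 residual degrees of freedom, the quasi-likelihood test and Benjamini-Hochberg adjustment over all tested genes. Called means an adjusted p under 0.05, and log2 changes carry standard errors. Groups of 1 library are assumed to vary like the others. OO chow is the mean of libraries 12 and 5, weighted equally. CPM values are TMM-normalised. Counting intervals and floors (95%, 3 counts) cover counting error only. Replicates differed beyond counting error, with a chi-square of 3.93 to 78.4 per degree of freedom (genes with 20 or more counts in the pair).

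The 46 genes, the 13 lists, the comparisons and the tests were chosen with earlier results of these data known. Values in every library are given for Mki67, Top2a, Cdk1, Ccnb1, Foxm1 and, in each of 7 roles, for the genes with the smallest and largest p under ethanol; elsewhere up to 4 called genes with the smallest p are named per comparison or list, with Cdkn1a, Ccnd1, Ccne1, Pcna and Mybl2 always. A further gene named as the largest, the smallest or the exception was picked after its values were seen. Gene models came from GENCODE M21 on mm10, and all 255 list symbols were matched. Alternatives were RLE scaling, no filter, DESeq2 1.42.0, limma-voom (limma 3.58.1) with sequencing lane, as the names of the deposited tables give it, as a random block, fits of the compared libraries alone, the day 23 ethanol library merged with day 20, each library left out and, added after seeing the data, libraries 6 and 12 left out together.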

Additional observations from a re-analysis of the deposited data

How the results depend on the processing

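How many of the 46 genes were called depended on the settings in most comparisons. Under ethanol, CCl4 against OO gave 44 to 46 calls under every alternative run, though none of these can separate lane from CCl4. At day 0 the 4 calls became 11 with no filter on low counts, 23 with DESeq2, 29 in a fit of the compared libraries alone and 0 with lane as a random block, and 0 to 1 with a library left out. For CCl4 chow against OO chow, 33 calls became 6 with the lane block and 1 to 22 with a library left out. For CCl4 chow at day 20 against day 0, 39 became 21 with the lane block and 1 to 17 with a library left out. For CCl4 ethanol against OO chow, 44 became 28 in a fit of the compared libraries alone, 37 with the lane block and 24 to 45 with a library left out. For ethanol in OO animals, 0 became 5 with DESeq2, 2 with the day 23 library merged and 0 to 1 with a library left out, all lower. The interaction gave 0 to 5 with a library left out, and ethanol in CCl4 animals gave 0 throughout. In that last comparison the log2 value of Foxm1, 0.0025, was -0.0032 in a fit of the compared libraries alone, -0.32 with the lane block and -0.3766 to 0.5674 with a library left out (below 0 without replicate 17, 18 or 20), and that of Mki67, 0.26, ran from -0.075 (without replicate 18) to 0.6386. Over all genes, DESeq2 called 729 where edgeR called 304 at day 0, 626 against 324 for CCl4 under chow, 416 against 187 and 1241 against 728 for ethanol in CCl4 and OO animals, and 147 against 21 for the interaction (37 with no filter). Fits of the compared libraries alone gave 2240, 2319 (3509 under ethanol), 987, 99, 24, 960 (1594 for CCl4 ethanol against OO chow) and 3, in the order of comparisons day 0, CCl4 under ethanol, CCl4 under chow, ethanol in CCl4, ethanol in OO, CCl4 ethanol against OO chow and interaction. The lane block gave 183 for CCl4 under chow, and libraries 6 and 12 left out gave 94, 1004 and 10 for the last 3. With a library left out, all-gene counts ran from 52 to 121, 2223 to 3981, 27 to 362, 49 to 141, 93 to 1829, 403 to 1772 and 2 to 34 in the same order, and from 262 to 796 (1694 in full) for CCl4 chow at day 20 against day 0. No paired analysis was possible because library numbers are not shared between groups. Depth limits Foxm1, Melk, Pbk, Bub1, Kif18b and Hmmr at day 0, with 0 to 3 counts over the OO group. Since the lane block came with a change from edgeR to limma-voom, the parts of block and test in its counts cannot be told apart. The compared groups shared no lane under ethanol, at day 0 and for ethanol in CCl4 or OO animals. Nor did they for CCl4 chow at day 20 against day 0. In these comparisons lane cannot be told apart from the arms compared, with or without the block. The cause of the changes in counts was not tested.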
